A study of Mus musculus with 4 samples.

Results

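The genes described here encode the semaphorins and their plexin receptors, the ephrins and their Eph receptors, the Slits and their Robo receptors, and the netrins and their Unc5 receptors. They were taken by the beginning of the gene symbol, with no measured value used, which gave 68 of the 27376 genes named on the array, carried by 121 of 41174 probes. Of these, Unc50 and Unc5cl were matched only by their names and are not counted with the netrin receptors. RNA of the left ventricle was hybridized to 4 one-colour arrays, 2 from wild-type mice (WT 2 and WT 3) and 2 from KDM5B knockout mice (KO 2 and KO 3). KDM5B is a histone demethylase that removes methyl groups from a histone lysine found at active promoters. The KO mice carried a CRISPR/Cas9 deletion with a frameshift in the part of Kdm5b that codes for the catalytic JmjC domain, and the WT mice were their littermates, both on the C57BL/6 background. All animals were labelled male, were 8 to 10 weeks old, had undergone permanent ligation of the LAD coronary artery, which makes an infarct in the wall of the left ventricle, and were sampled 7 days later. No uninjured heart was compared here. Nothing in the labels says that each array holds 1 separate animal, so the p-values measure only the spread between these samples.

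Guidance proteins were first known for steering growing axons. Secreted semaphorins act through plexins together with neuropilins, whereas membrane semaphorins mostly bind plexins directly. Ephrins and Eph receptors are both membrane proteins and signal into both of the cells that touch, and in vessels ephrin-B2 marks arteries and EphB4 marks veins. Slits bind Robo receptors, and netrins attract or repel through Dcc, neogenin and the Unc5 receptors. In the heart these systems are known for vessel growth, for the pattern of sympathetic nerves and for the traffic of immune cells.

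The targeted gene was examined first. Its brighter probe (chr1:136485365-136485424, mm9) read -0.87 and -1.81 in WT and -2.4 and -2.26 in KO. In each such pair the array numbered 2 comes before the array numbered 3. These values, like all levels below, are log2 processed signal relative to the 75th percentile of the same array, so that 1 unit is a 2-fold difference, and they cannot be set against those of another probe. Neither KO value reached those of WT, with a KO minus WT difference of -1.0 (SE 0.40, limma adjusted p = 0.9999), but the difference was -1.53 between the arrays numbered 2 and -0.46 between those numbered 3. The dimmer Kdm5b probe gave a difference of -1.19 (SE 0.45). Whether either probe lies within the deleted bases was not determined. Atf3, a stress-induced transcription factor that the study examined in these hearts, read 0.37 and 0.57 in WT and 2.34 and 1.26 in KO.

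The arrays differed among themselves in ways that genotype does not describe. Xist, which is transcribed from the inactive X chromosome, was well above background only on WT 2 and KO 2, at 4.36 and 4.0, and the Y-linked gene Ddx3y only on WT 3 and KO 3, at 1.95 and 1.65, although all samples carry the label male. KO 2 also stood apart in its marker genes. The mean level of 4 atrial genes was 6.76 on KO 2 against 0.06 on WT 2, 0.67 on WT 3 and 1.42 on KO 3, and Sln, an atrial regulator of the calcium pump, read 5.95 on KO 2 against -7.23, -4.95 and -2.46. The 10 cardiomyocyte markers averaged 6.63 and 5.59 in WT and 7.61 and 4.78 in KO, so that all 10 were higher in KO at number 2 and 0 at number 3. The 9 fibroblast markers averaged 4.17 on KO 2 and between 5.32 and 5.54 on the other arrays, the 8 macrophage markers 3.18 against 4.22 to 4.86, the 4 mesothelial markers -1.72 against 0.07 to 1.39, and the 4 neutrophil markers -1.88 against 0.91 to 1.03. Endothelial markers varied less, between 2.16 on KO 3 and 2.87 on KO 2, and glial and neuronal markers least, between -2.25 and -1.99. Because these are bulk samples, fewer cells of a type and less RNA per cell cannot be told apart, and the part of tissue composition in the differences below was not tested. The counts and medians of the guidance genes are therefore given over all 4 arrays, within each array number and without KO 2, and single genes that moved most are also given without KO 2. Without KO 2, KO 3 alone is set against the mean of WT 2 and WT 3, which themselves differ in Xist and Ddx3y.

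**Figure D1:**
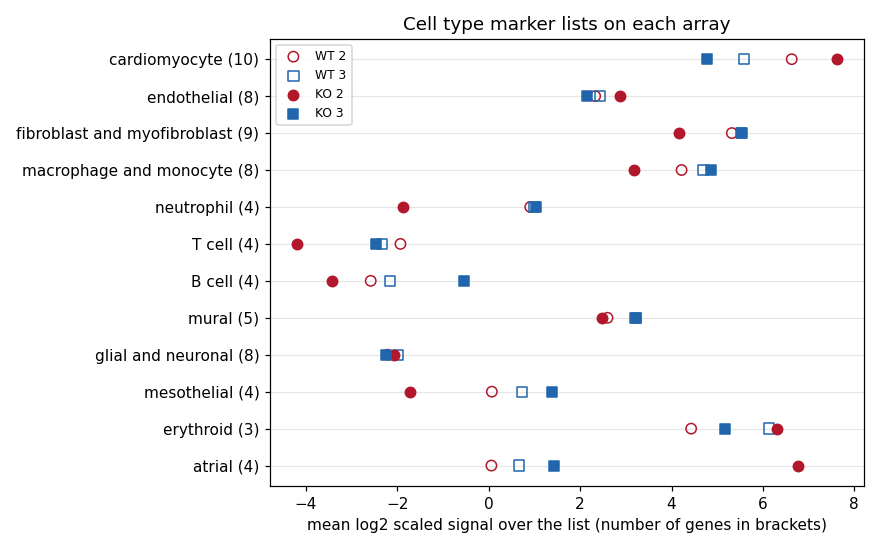
Mean log2 scaled signal (horizontal axis) of each cell type marker list on WT 2, WT 3, KO 2 and KO 3, with the number of genes in brackets. KO 2 has the highest atrial mean (6.76) and cardiomyocyte mean (7.61) and the lowest fibroblast (4.17), macrophage (3.18) and neutrophil (-1.88) means.

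Of the 68 genes, 60 were tested, that is, their brightest probe gave a signal well over background on each array of WT, of KO or of both, and 55 of these were above background on all 4 arrays. The remaining 5 tested genes, Epha3, Sema3a, Sema3e, Sema4f and Sema4g, were above background on 3 arrays. The array not above background was KO 2 for Epha3, Sema3e and Sema4g and KO 3 for Sema3a and Sema4f, so that these genes entered the test through WT, where they are higher. Efna3, Epha5, Epha8, Epha10, Ntn5, Robo2, Unc5cl and Unc5d were not well above background on any array. All 20 semaphorins and all 9 plexins were among the tested genes.

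None of the guidance genes passed the threshold of an adjusted p under 0.05 and a fold over 2 in limma, as 0 of 60 were called against 0% of the 18449 tested genes. At an unadjusted p under 0.05, 1 gene (1.67%) was found, Sema4c, against 1.59% of all tested genes. The methods' t-test also called 0 probes after Benjamini-Hochberg adjustment. The lowest adjusted p among the 60 was 0.9999. By size alone, 1 gene was over 2-fold higher in KO (1.67%), namely Efnb3, against 1.13% of all tested genes, and 3 were over 2-fold lower (5.0%), namely Epha1, Epha3 and Ephb2, against 2.67%. Of these, Epha3 was not well above background on KO 2 and entered the test through WT. The median difference over the 60 was -0.09 on the log2 scale, against 0.02 over all tested genes, and it was 0.09 without KO 2. KO was lower than WT by any amount in 35 of 60 (58.3%), against 47.4% of all tested genes. With normexp, a background correction made from the mean spot signal and its local background, the shares were 26 of 60 (43.3%) and 35.1%.

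Within the numbers the picture was uneven. At number 2, 13 genes (21.7%) were over 2-fold lower in KO 2 than in WT 2, against 9.73% of all tested genes. Of these, Epha3, Sema3e and Sema4g were not well above background on KO 2 and entered the test through WT. At the same number, 4 (6.67%) were over 2-fold higher, against 6.77%. At number 3, 3 genes (5.0%) were over 2-fold lower, namely Sema3a, Sema4f and Sema5a, against 1.93%, and 0 were higher, against 2.48%. Sema3a and Sema4f were not well above background on KO 3, and their mean differences turned sign with normexp. No guidance gene was over 2-fold lower at both numbers. Leaving KO 2 out, 4 genes (6.67%) were over 2-fold lower in KO, namely Efnb3, Ntn1, Sema3a and Sema4f, against 3.86% of all tested genes, and 0 were over 2-fold higher, against 2.59%. Here KO 3 alone stood against the mean of WT 2 and WT 3. At number 3 the difference was 0.05 for Efnb3 and -0.65 for Ntn1, so neither was over 2-fold lower against WT 3. The differences at the numbers had opposite signs in 31 of 60 genes (51.7%), against 53.7% of all tested genes. In 21 of the 60 they lay more than 1 log2 unit apart, but this count was not made over all tested genes.

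**Figure D2:**
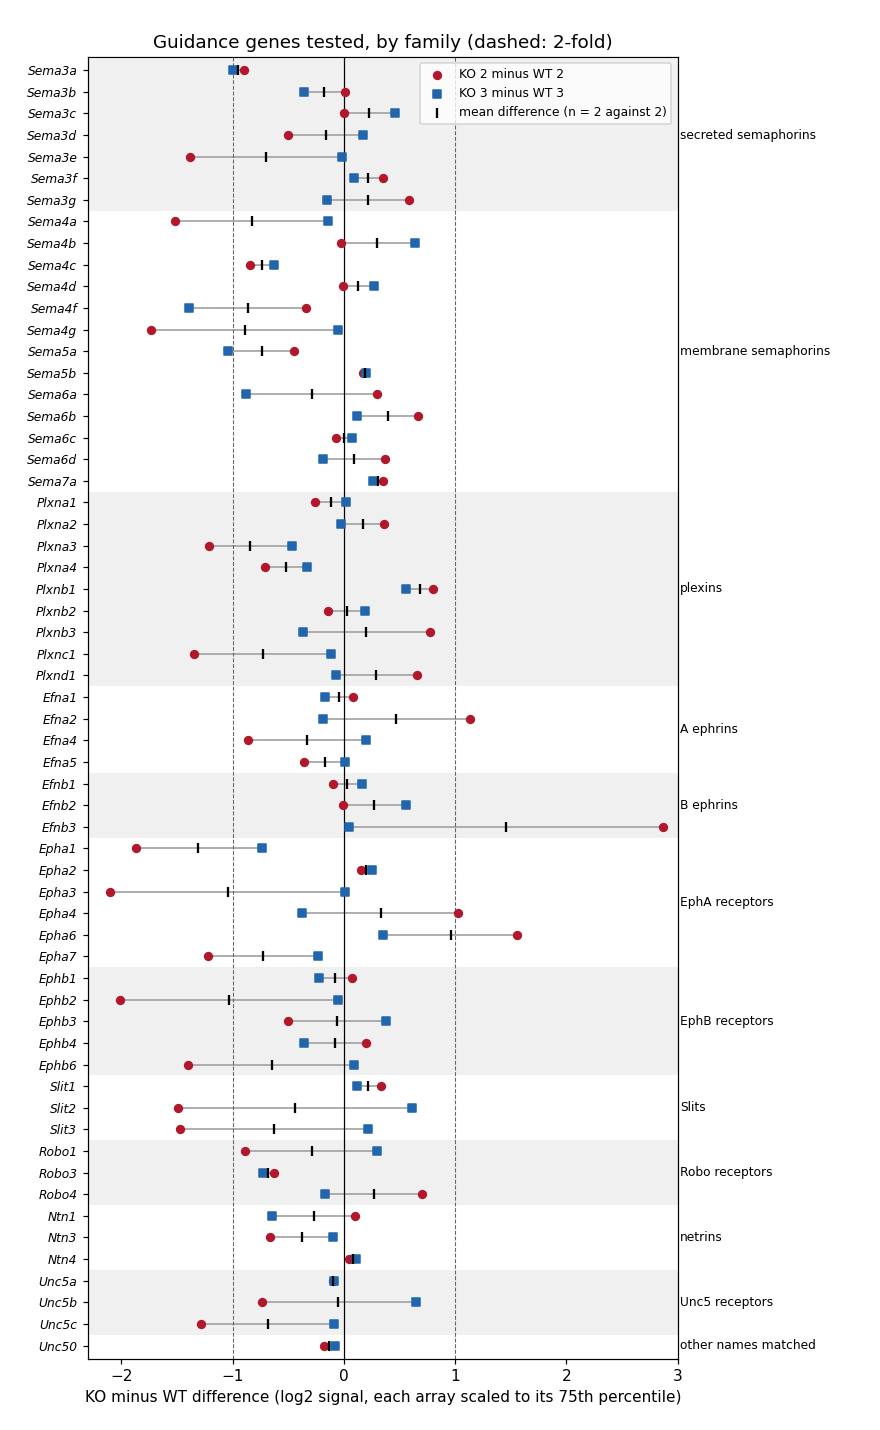
KO minus WT difference in log2 scaled signal (horizontal axis) of the 60 tested guidance genes, by family, with circles for number 2, squares for number 3, bars for the mean difference and dashed lines at 2-fold. In many rows, such as Efnb3, Epha3 and Slit2, the number 2 and number 3 points lie far apart, and Plxnb1, Sema7a, Sema4c and Sema5b are among those where they lie close together on one side of 0.

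In some guidance genes the KO and WT arrays did not overlap, which also fixes the direction within each number. The KO values were all below those of WT in 8 genes (13.3%), namely Epha1, Plxna3, Robo3, Sema3a, Sema4a, Sema4c, Sema4f and Sema5a, against 10.7% of all tested genes. Of these, Robo3, Sema3a and Sema4f turned to a positive difference with normexp. Sema3a and Sema4f were also not well above background on KO 3 and entered the test through WT, where they are higher. The KO values were all above those of WT in 6 (10.0%), namely Epha2, Plxnb1, Sema5b, Sema6b, Sema7a and Slit1, against 12.9%. Both shares were thus near those of all tested genes, and with 2 arrays against 2 an exact permutation test of a single gene cannot give a two-sided p under 0.333.

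Among the secreted semaphorins, 3 of 7 read higher and 4 lower in KO, with a median difference of -0.16, although Sema3a, Sema3d and Sema3e turned sign with normexp, and 1 gene had arrays that did not overlap. That gene was Sema3a, a repellent of sympathetic axons that signals through neuropilin-1. It was not well above background on KO 3 and entered the test through WT. Sema3a read -3.99 and -4.79 in WT and -4.89 and -5.79 in KO, which gave differences of -0.90 at number 2 and -1.0 at number 3 and a mean difference of -0.95 (SE 0.48, fold 1.93). With normexp background correction in place of the processed signal, the Sema3a difference was 0.08, where the median over all tested probes was itself 0.13. Sema3e, a ligand of plexin-D1 that repels vessels, read -5.21, -5.05, -6.59 and -5.07 on WT 2, WT 3, KO 2 and KO 3, so that only KO 2 was low. Its difference was -0.70, but 0.06 without KO 2 and 0.28 with normexp.

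Sema3c, which guides neural crest cells into the cardiac outflow tract, read -2.53 and -3.51 in WT and -2.53 and -3.04 in KO, with a difference of 0.23 (SE 0.45), or -0.02 without KO 2. Sema3d read -2.34 and -1.97 in WT and -2.84 and -1.80 in KO, a difference of -0.16 that was 0.36 without KO 2 and 0.03 with normexp. The anti-angiogenic Sema3f read -0.68 and -0.21 in WT and -0.33 and -0.11 in KO. On the brightest probes of these genes the WT and KO arrays overlapped. Sema3g, a semaphorin of arterial endothelium, read 1.35 and 1.92 in WT and 1.93 and 1.77 in KO, a difference of 0.22 (SE 0.30), and Sema3b differed by -0.18.

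The 2 tested probes of Sema3c disagreed in sign, and their first 30 of 60 bases are shown because they read different positions of the gene, with coordinates on mm9.
Sema3c brighter probe, chr5:17234078-17234137: acgtaaagtcaagagtgactcataaagagc
Sema3c dimmer probe, chr5:17083479-17083538: tgctcacatcattctagacgggtggttggg
The brighter probe gave a difference of 0.23 and the dimmer one -0.95. The dimmer one read -4.3 and -3.69 in WT and -4.56 and -5.33 in KO, so there all KO values were below those of WT. Of the 24 guidance genes with more than 1 tested probe, 13 had probes of the same sign and 11 did not, and 34 of the 68 had a single probe.

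Of the 13 membrane semaphorins, 7 read higher and 6 lower in KO, Sema4f and Sema4g among the lower turning sign with normexp, and the median difference was 0.00. In 4 of them all KO values were below those of WT and in 3 all were above, which occurred in 10.7% and 12.9% of all tested genes. Sema4f, 1 of the 4, was not well above background on KO 3 and entered the test through WT. Sema4c, a ligand of plexin-B2, had the lowest unadjusted p of all 60 genes (0.0450, limma adjusted p = 0.9999). Sema4c read -1.28 and -1.13 in WT and -2.12 and -1.76 in KO, a mean of -1.21 ± 0.11 in WT and -1.94 ± 0.26 in KO (SD, n = 2). The difference of -0.74 (SE 0.25, fold 1.67) was made of -0.84 at number 2 and -0.63 at number 3, and was -0.55 without KO 2. A dimmer probe, which lies in the same gene, a short way along the chromosome, read -1.77 and -1.79 in WT and -1.67 and -1.88 in KO, so it gave no difference (0.00). Both probes are shown by their first 30 bases, with mm9 coordinates, since the size of the difference depends on which is read.
Sema4c brighter probe, chr1:36606063-36606122: tgcaaggaagaggtttcaagatgtgggcgt
Sema4c dimmer probe, chr1:36606521-36606580: ctctgccttctccaactcggctccacctag

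Sema5a, a guidance protein with thrombospondin repeats, read -0.44 and -0.29 in WT and -0.89 and -1.32 in KO. All KO values were below the WT values, and the difference was -0.74 (SE 0.26, fold 1.67), with -0.45 within number 2 and -1.04 within number 3, and it was -0.96 once KO 2 was left out. Sema5a was thus lower by a larger amount when the array with the atrial transcripts was left out. Its probe lies at chr15:32625859-32625918 (mm9). Sema4a, which is carried by immune cells and acts on T cells, read 1.01 and 0.40 in WT and -0.52 and 0.26 in KO. The Sema4a difference of -0.83 (SE 0.41) came mostly from number 2 (-1.52, against -0.14 at number 3). There the macrophage and T cell lists also averaged lower in KO, although the macrophage marker Ly6c2 was higher. The macrophage list averaged 4.22 on WT 2 and 3.18 on KO 2, and the T cell list -1.93 and -4.19. The part of these cells in the Sema4a signal was not tested.

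Sema4f read -4.26 and -4.43 in WT and -4.59 and -5.82 in KO, a difference of -0.86 (SE 0.49) that became 0.10 with normexp. Sema4g read -4.69 and -4.58 in WT and -6.42 and -4.64 in KO, so that only KO 2 was low, and its difference of -0.89 (SE 0.68) became 0.23 with normexp. Sema4d, which activates plexin-B1, read -1.38 and -1.27 in WT and -1.40 and -1.0 in KO. The difference of 0.13 for Sema4d is that of its brightest probe, and over the mean of its probes it was -0.60. Its dimmer probe, above background on 3 arrays, read -3.73 and -3.75 in WT and -7.33 and -2.81 in KO, so that only KO 2 was low. Sema6a read -1.38 and -1.34 in WT and -1.08 and -2.22 in KO, and the signs at the numbers were opposite (0.30 and -0.88), with -0.86 without KO 2. Sema6d, known for trabecular and valve growth in the developing heart, read 1.52 and 1.71 in WT and 1.89 and 1.52 in KO, with overlapping arrays.

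In the other direction, Sema7a, a membrane-anchored semaphorin that binds plexin-C1 and integrins, read 3.36 and 3.15 in WT and 3.71 and 3.42 in KO. The difference of 0.31 (SE 0.24, fold 1.24) was similar at both numbers, 0.35 and 0.26, and 0.16 without KO 2. Sema6b read -0.81 and -0.92 in WT and -0.14 and -0.80 in KO. Its difference of 0.40 (SE 0.32) rested mainly on KO 2, since it was 0.07 without that array. Sema5b read -1.27 and -1.35 in WT and -1.10 and -1.15 in KO, a difference of 0.19 (SE 0.21), and Sema6c had a difference of 0.00.

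Of the 9 plexins, 5 read higher and 4 lower, with a median difference of 0.03, Plxnb2 among the higher turning sign with normexp. Plexin-B1, the receptor of Sema4d, had the largest difference among the 6 genes with all KO values above those of WT. Plxnb1 read -1.72 and -1.99 in WT and -0.92 and -1.42 in KO, with means of -1.85 ± 0.19 in WT and -1.17 ± 0.36 in KO (SD, n = 2). The difference was 0.68 (SE 0.29, fold 1.60), 0.80 within number 2 and 0.56 within number 3, and it was 0.43 once KO 2 was left out. A second probe of Plxnb1 gave 0.40, reading -2.51 and -2.62 in WT and -1.71 and -2.63 in KO, so there the KO 3 array was no higher than the WT arrays. Plxnb2, the receptor of Sema4c, read 3.29 and 3.48 in WT and 3.15 and 3.67 in KO, and its difference of 0.03 became -0.03 with normexp.

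Plxna3 was the plexin with the lowest difference. It read -1.83 and -1.6 in WT and -3.04 and -2.07 in KO, a difference of -0.84 (SE 0.42), -1.21 at number 2 and -0.47 at number 3, or -0.35 with KO 2 left out. Plxna4, which transmits Sema3a signals in neurons, read 1.96 and 2.42 in WT and 1.24 and 2.09 in KO, a difference of -0.52 (SE 0.41) that was -0.10 without KO 2, with KO 3 between the WT arrays. Plxna1 read 0.71 and 1.33 in WT and 0.46 and 1.35 in KO, and Plxna2 read 1.43 and 1.34 in WT and 1.79 and 1.32 in KO. Plxnd1, the endothelial receptor of Sema3e, read 0.20 and 0.54 in WT and 0.86 and 0.47 in KO, a difference of 0.29 (SE 0.28), or 0.09 without KO 2. Plxnc1, a plexin of myeloid cells, read 0.28 and 1.08 in WT and -1.07 and 0.97 in KO. The macrophage list also averaged lowest on KO 2, although its member Ly6c2 was highest there. The Plxnc1 difference was -0.73 (SE 0.82) with KO 2 and 0.29 without that array.

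**Figure D3:**
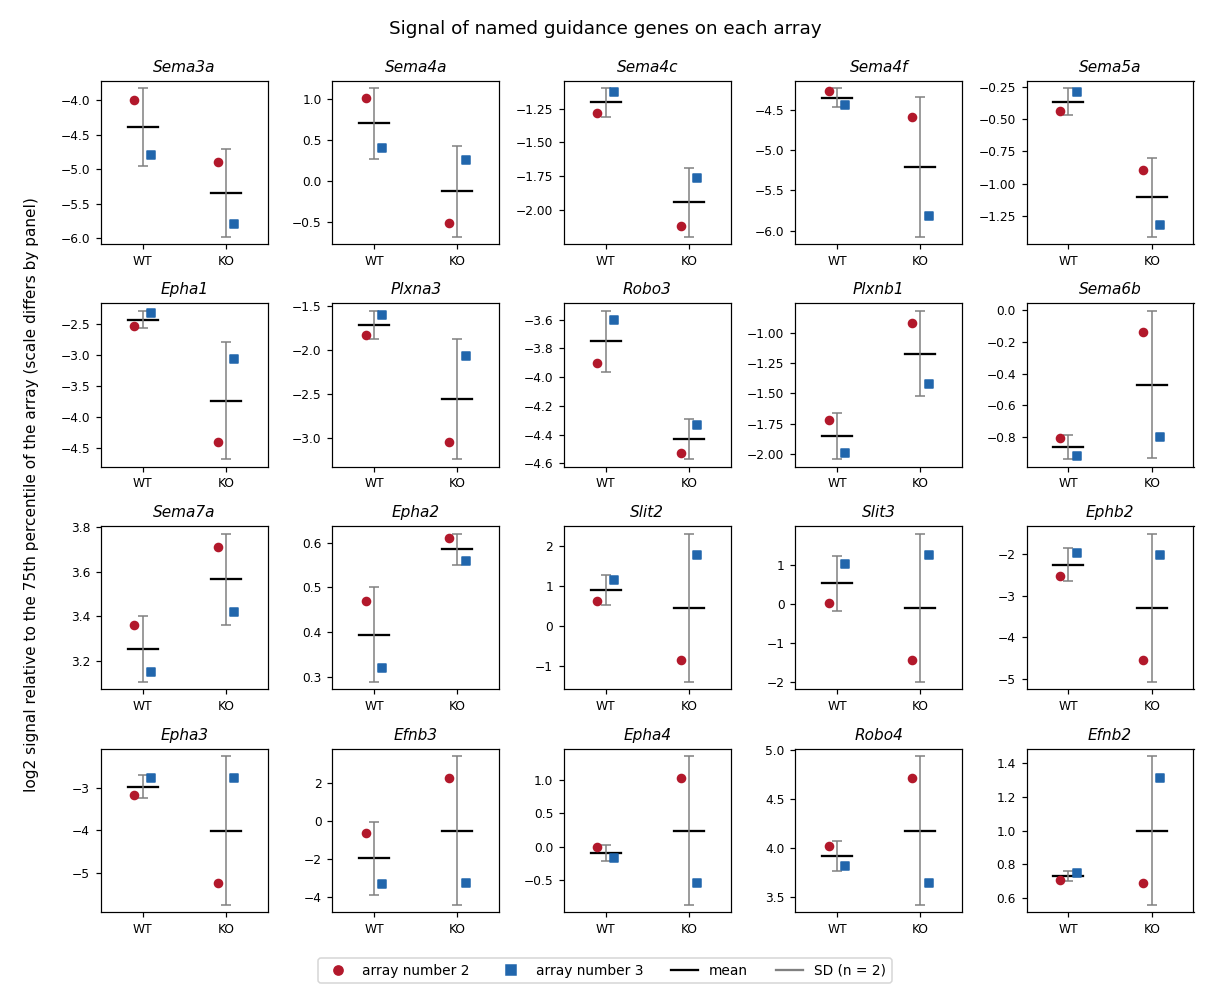
Log2 scaled signal (vertical axis, scale differing by panel) of 20 guidance genes on each array, with circles for number 2, squares for number 3, a black line for the mean and bars for the SD (n = 2). The KO points lie below both WT points for Sema4c, Sema5a and Epha1 and above them for Plxnb1, Sema7a and Epha2, while for Slit2, Slit3, Epha3 and Ephb2 the KO 2 point is low and the KO 3 point is near the WT level or above it.

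The EphA receptors held both the largest negative difference and the largest spread between the numbers among receptors. EphA1, a receptor of A ephrins, read -2.53 and -2.33 in WT and -4.40 and -3.07 in KO. All KO values of Epha1 were below the WT values, and the difference was -1.31 (SE 0.53, fold 2.48), with -1.87 within number 2 and -0.74 within number 3, and it was -0.64 once KO 2 was left out. With normexp the Epha1 difference was smaller, at -0.54, where the median over all tested probes was 0.13. Its probe lies at chr6:42308583-42308642 (mm9). Epha3 read -3.15 and -2.77 in WT and -5.25 and -2.76 in KO, and Epha7 read -0.83 and -0.17 in WT and -2.05 and -0.40 in KO, so both were low on KO 2 only. Epha3, which marks mesenchymal cells of the developing heart, differed by -1.04 (SE 0.94) over all arrays and by 0.20 without KO 2, and the fibroblast markers averaged 5.32 on WT 2 and 4.17 on KO 2.

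The endothelial receptor Epha2 read 0.47 and 0.32 in WT and 0.61 and 0.56 in KO, which did not overlap, and the difference was small at 0.20 (SE 0.21). Epha4 and Epha6 read higher on KO 2 than on any other array. Epha4 read -0.01 and -0.18 in WT and 1.03 and -0.55 in KO, and Epha6 read -3.99 and -5.34 in WT and -2.43 and -5.00 in KO. Without KO 2 the differences were -0.46 for Epha4 and -0.33 for Epha6. Among the A ephrins, Efna1, an endothelial ligand of EphA2, read -0.92 and -1.09 in WT and -0.84 and -1.26 in KO. Its difference of -0.04 (SE 0.26) lay within the spread, and it was 0.01 with normexp. Efna2 was over 2-fold higher at number 2 only (1.13, against -0.19 at number 3).

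The B ephrins all read higher in KO by their mean differences, at 0.03 for Efnb1, 0.27 for Efnb2 and 1.46 for Efnb3, while all 5 EphB receptors read lower, although the Efnb1 sign turned with normexp (-0.01) and with quantile normalization (-0.07), and the Ephb1 and Ephb6 signs with normexp (0.11 and 0.08). These mean directions did not all hold without KO 2, where the median EphB difference was 0.23. Efnb2, the arterial ephrin, read 0.71 and 0.75 in WT and 0.69 and 1.31 in KO, a difference that was 0.58 without KO 2, and its second probe gave a difference of 0.54 (SE 0.24), reading -1.91 and -1.73 in WT and -1.43 and -1.14 in KO. Efnb1 read 2.90 and 2.91 in WT and 2.80 and 3.07 in KO.

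Efnb3 carried the largest difference and the largest gap between numbers of all 60 genes, and both came from the arrays numbered 2. Efnb3 read -0.61 on WT 2 and 2.26 on KO 2, but -3.32 on WT 3 and -3.27 on KO 3. The difference was 1.46 (SE 2.26), made of 2.87 at number 2 and 0.05 at number 3, and was -1.30 without KO 2. The cardiomyocyte list was also higher on KO 2 (7.61) and WT 2 (6.63) than on WT 3 (5.59) and KO 3 (4.78). The part of tissue composition in this value was not tested.

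Ephb2, which binds B ephrins and takes part in vessel and axon patterning, read -2.53 and -1.97 in WT and -4.55 and -2.02 in KO. Its difference was -1.03 (SE 0.97), but 0.23 without KO 2. A dimmer probe, which spans an interval longer than itself on the genome, read -4.43 and -4.40 in WT and -5.66 and -2.62 in KO and differed by 0.28. Both probes are shown by their first 30 bases with mm9 coordinates because they disagree in sign.
Ephb2 brighter probe, chr4:136210602-136210661: aggatagttgttctgtcttgggagacggtt
Ephb2 dimmer probe, chr4:136213476-136214873: tactgggacatgaccaatcaagacgtaatc
The venous receptor Ephb4 read -0.15 and -0.09 in WT and 0.05 and -0.45 in KO, a difference of -0.08 (SE 0.27), and Ephb3 read 0.67 and 0.55 in WT and 0.17 and 0.93 in KO, a difference of -0.06 (SE 0.35). Without KO 2 they were -0.33 and 0.32.

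Slit2, Slit3 and Robo1 differed in opposite directions at the numbers. Slit2 read 0.63 and 1.16 in WT and -0.86 and 1.77 in KO, and Slit3 read 0.02, 1.02, -1.45 and 1.24 in the same order. Both were therefore lowest on KO 2 and highest on KO 3. The difference for Slit2 was -1.49 at number 2 and 0.61 at number 3, with a mean of -0.44 (SE 1.0), and for Slit3 it was -1.47 and 0.22, with a mean of -0.63 (SE 1.07). Without KO 2 the differences were 0.87 and 0.72. All 4 tested Slit2 probes gave negative mean differences, from -0.62 to -0.20. In both genes the KO 2 value was low where the fibroblast list (4.17 on KO 2, 5.32 on WT 2) was low too. Slit1, in contrast, read -2.32 and -2.27 in WT and -1.99 and -2.15 in KO, a non-overlapping difference of 0.22 (SE 0.21).

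Robo3, a Robo receptor that modulates the Slit response of commissural axons, differed by similar amounts at both numbers. It read -3.90 and -3.60 in WT and -4.53 and -4.33 in KO, with a difference of -0.68 (SE 0.24, fold 1.60), -0.63 at number 2 and -0.73 at number 3, and a second probe gave -0.66. Its sign turned with normexp (0.07), however, where the median over all tested probes was 0.13. Its probe at chr9:37223760-37223819 lies close to that of Robo4 at chr9:37221537-37221596 (both mm9). Robo4, the endothelial Robo receptor, read 4.02 and 3.81 in WT and 4.71 and 3.64 in KO, a difference of 0.27 (SE 0.45), with 0.70 within number 2 and -0.17 within number 3, and it turned to -0.27 once KO 2 was left out. Robo1 read -0.81 and -0.51 in WT and -1.70 and -0.20 in KO, the same order as for Slit2, and its difference of -0.29 was 0.46 without KO 2. Robo2 read between -6.54 and -5.71 and was not above background.

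The KO and WT arrays overlapped in all 3 tested netrins and all 3 tested Unc5 receptors. Ntn1, the founding netrin, read -2.47 and -3.23 in WT and -2.37 and -3.87 in KO, a difference of -0.27 (SE 0.65) that was 0.08 with normexp and -1.03 without KO 2. Ntn4, a netrin of basement membranes, read -4.10 and -3.47 in WT and -4.04 and -3.36 in KO, a difference of 0.08 (SE 0.39). Unc5b, the netrin receptor of endothelial cells and macrophages, read 2.31 and 2.86 in WT and 1.57 and 3.50 in KO. Its differences were of opposite sign, -0.74 within number 2 and 0.65 within number 3, and leaving out KO 2 gave 0.92. Unc5c read -2.77 and -2.43 in WT and -4.05 and -2.52 in KO, and was low on KO 2 alone, with a difference of 0.08 without that array. Unc5a differed by -0.10 (SE 0.26).

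**Figure D4:**
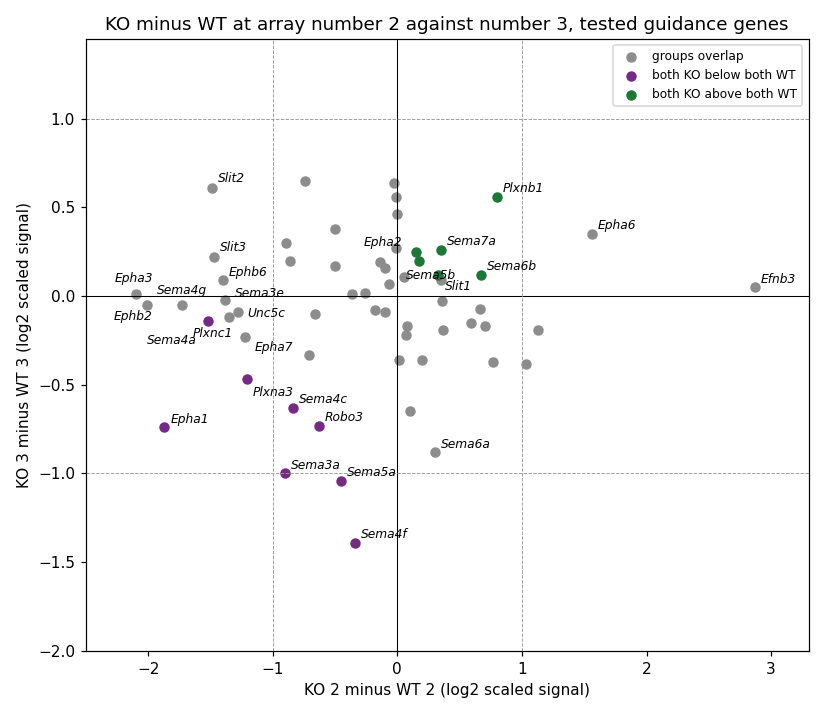
KO minus WT difference at number 3 (vertical axis) against that at number 2 (horizontal axis), in log2 scaled signal, for the 60 tested guidance genes, with dashed lines at 2-fold and colours for genes whose KO and WT arrays do not overlap. Efnb3 lies far right near 0 on the vertical axis, Epha3 and Ephb2 lie far left near 0, Slit2 and Slit3 lie at the upper left, and Epha1 and Sema5a are below 0 on both axes.

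The genes that work with these cues were examined as a list of 64 co-receptors, effectors and vascular readers, of which 63 were found on the array and 61 tested. None was called in limma, and 0 had an unadjusted p under 0.05. None was over 2-fold higher, and Adora2b, Dscam and Srgap3 were over 2-fold lower (4.92%, against 2.67% of all tested genes). The KO values were all above those of WT in 7 genes (11.5%, against 12.9%) and all below in 8 (13.1%, against 10.7%). The median difference over the 61 was -0.01, with -0.12 within number 2 and 0.03 within number 3, and it was 0.10 once KO 2 was left out. KO read lower in 32 of them (52.5%), against 47.4%. Without KO 2, 1 gene was over 2-fold lower (1.64%), Ntng1, against 3.86% of all tested genes. The number over 2-fold higher was 0, against 2.59%. Ntng1 was not above background on KO 3, nor Dscam on KO 2, so both entered the test through WT, where they are higher. Both are among the 8 genes with all KO values below those of WT, and Dscam is among those over 2-fold lower.

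The semaphorin co-receptor Nrp1 read 0.29 and 0.44 in WT and 0.85 and 0.47 in KO, a difference of 0.29 (SE 0.25, or 0.10 without KO 2), and its paralogue Nrp2 read 3.84 and 3.56 in WT and 4.09 and 3.98 in KO, a difference of 0.33 (SE 0.23). Both genes read higher on both KO arrays. Dll4, a Notch ligand of vessel tips, read -2.77 and -2.96 in WT and -1.92 and -2.48 in KO, a difference of 0.67 (SE 0.29, fold 1.59) that was 0.39 without KO 2. It had the lowest unadjusted p of the list (0.0902, limma adjusted p = 0.9999). Dscam, a netrin receptor, read -4.93 and -4.99 in WT and -7.72 and -5.00 in KO, and KO 2, where it was not above background, was the only low array. Srgap3, which passes Robo signals to small GTPases, read 0.64 and 0.94 in WT and -1.15 and 0.47 in KO, a difference of -1.13 (SE 0.63), with -1.79 within number 2 and -0.47 within number 3, and it was -0.32 once KO 2 was left out. The adenosine receptor Adora2b differed by -1.03, or -0.53 without KO 2. The netrin receptor neogenin (Neo1) differed by -0.01, and Dcc was not tested.

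Promoters are shown for the receptor or ligand with the largest non-overlapping negative difference (Epha1), for Sema5a, whose negative difference held without KO 2, and for Plxnb1, which read higher in KO. They come from RefSeq (GRCm38.p6), run 5′ to 3′ along the gene from 250 bases before to 50 bases after the start, and carry in capitals the GC box, GGGCGG on either strand.
Epha1 promoter, chr6:42373219-42373518, minus strand: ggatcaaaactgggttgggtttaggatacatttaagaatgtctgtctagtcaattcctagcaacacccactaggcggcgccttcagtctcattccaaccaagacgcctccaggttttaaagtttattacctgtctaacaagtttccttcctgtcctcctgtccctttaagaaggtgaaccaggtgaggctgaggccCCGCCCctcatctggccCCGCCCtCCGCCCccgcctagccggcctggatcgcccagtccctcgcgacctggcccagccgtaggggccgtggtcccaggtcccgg
Sema5a promoter, chr15:32244563-32244862, plus strand: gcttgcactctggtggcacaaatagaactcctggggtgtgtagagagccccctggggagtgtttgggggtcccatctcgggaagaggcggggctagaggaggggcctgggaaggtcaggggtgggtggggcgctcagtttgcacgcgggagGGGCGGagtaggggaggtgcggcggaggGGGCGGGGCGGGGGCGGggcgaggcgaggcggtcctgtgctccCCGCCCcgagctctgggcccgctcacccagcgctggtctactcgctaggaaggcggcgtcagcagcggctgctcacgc
Plxnb1 promoter, chr9:109095186-109095485, plus strand: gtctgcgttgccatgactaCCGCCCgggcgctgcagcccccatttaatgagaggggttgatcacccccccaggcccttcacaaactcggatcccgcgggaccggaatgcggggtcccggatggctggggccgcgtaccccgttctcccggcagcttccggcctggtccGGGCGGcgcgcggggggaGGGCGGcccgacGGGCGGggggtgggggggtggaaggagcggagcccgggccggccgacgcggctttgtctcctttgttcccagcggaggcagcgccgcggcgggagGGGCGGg
The 3 windows hold 3, 5 and 5 GC boxes and 14, 23 and 36 CpG dinucleotides, and 53%, 73% and 92% of coding promoters hold as few CpG or fewer. A cAMP-response element (TGACGTCA), an AP-1 motif (TGANTCA) and a TATA box (TATAAA), each searched on both strands, were in 0 of the 3 windows. Among the 75 promoter windows of the 59 guidance genes in the table, 70.7% held a GC box against 46.2% of 21262 coding promoters, and 2.67% held a TATA box against 12.6%. The AP-1 motif was in 4.0% of guidance windows against 6.99% of coding ones, and the cAMP-response element in 1.33% against 2.23%. The median CpG number was 19 in guidance windows and 13 in coding promoters. A match of letters is a description of the window, and binding or methylation at these promoters was not analysed here.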

How the data were processed

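RNA of the left ventricle was hybridized to Agilent one-colour arrays, 2 from WT and 2 from KO mice, and the authors deposited the spot intensity from Feature Extraction (version 10.7 per the submitters' processing notes), background-subtracted and detrended per the file headers, with coordinates on mm9. A second table that the authors deposited holds log2 values. On each array 99.9% to 99.96% of them came within 0.01 of the log2 intensity after quantile normalization. Its column medians were 6.78.

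Outlier spots (92 to 116 per array) were left out. No spot was saturated, and 68.15% to 72.05% of probes were well above background. The arrays shared 1 slide and 1 scan day, so slide position and genotype cannot be told apart. The log2 intensity was shifted by the 75th percentile of each array. Probes with a signal well over background on each array of WT, of KO or of both (28305 probes) were tested with limma 3.58.1 in R 4.3.3 (lmFit, eBayes) and Benjamini-Hochberg adjustment over all of them. A gene took the value of its brightest probe, and counted as tested when that probe was tested. The number of arrays limits the precision.

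The guidance genes, the partner and marker lists and the rule for named genes were chosen with earlier results of these data known. Named genes were ligand and receptor sets known in heart or vessel biology, genes whose arrays did not overlap, and the 6 with the largest difference and the 6 with the largest gap between numbers. Probe pairs were shown for Sema3c, Sema4c and Ephb2, whose differences disagreed in sign or size. Tested probes also differed in sign in Ephb4, Ntn1, Plxna1, Plxna4, Sema4d, Sema5b, Sema6a and Sema6d, whose probes were not shown. Alternatives were normexp (offset 50), quantile normalization, a median shift, the authors' values, filters on dim probes, a replicate block by array number, leaving out each array, the methods' t-test, trend and robust eBayes, and the mean of all probes. All 68 guidance genes matched a RefSeq symbol (GRCm38.p6). The position of probes within exons was not determined.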

Additional observations from a re-analysis of the deposited data

Results flagged for a closer look

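Xist, which takes no part in the comparisons of the guidance genes, read 14.13 on WT 2 and 13.24 on KO 2 in log2 without scaling, far above the mean of the negative control spots on those arrays (2.31 and 1.94 in log2), although both samples carry the label male. The other arrays, WT 3 and KO 3, had no Xist signal above background, and it was they that had Ddx3y. The split follows the array number and is the same in both genotypes, so within number 2 and within number 3 the KO and WT arrays were alike in these genes. Its part in the guidance gene differences was not tested.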

How the results depend on the processing

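With each of the other settings, including the replicate block, limma or the methods' t-test called 0 of all tested probes and 0 of the guidance genes. At an unadjusted p under 0.05 there were 410 probes over all arrays, 1162 with normexp, 879 with the methods' t-test, 1695 without KO 2 and 7278 without KO 3. The number of guidance genes over 2-fold lower was 3, 0 with normexp, 1 with the mean of all probes and 3 to 15 when each array was left out (6 without WT 2, 15 without KO 3). The number over 2-fold higher was 1, 2 with quantile normalization, 2 with the authors' values and 0 to 3 when each array was left out (2 without WT 2, 0 without WT 3 or KO 2, 3 without KO 3). The median difference was -0.09, 0.06 with normexp, where all tested probes had a median of 0.13, and -0.17 to 0.09 when each array was left out. A lone array of a group was assumed to vary like the other group. Of the counts with 1 array left out, only those without KO 2 have a share over all tested genes (3.86% lower, 2.59% higher). The others have none beside them and are not a result about the guidance genes. Without KO 3, KO 2 stood alone for KO, and 9.73% of all tested genes were over 2-fold lower in KO 2 than in WT 2.

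With array number as a replicate block, 0 guidance genes were called, 1 was over 2-fold higher, 3 were over 2-fold lower, the median difference stayed at -0.09, and 602 probes and 3 guidance genes had an unadjusted p under 0.05. The numbers were not shown to pair the samples, because the deviations of same-numbered arrays correlated at 0.569 over probes with only 2 numbers. A block for slide or scan day could not be fitted, with 1 of each.

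Of 595 gene differences recomputed over 4 arrays, 574 kept their sign and 21 turned. With normexp they became 0.01 for Efna1, 0.04 for Efna4, -0.01 for Efnb1, 0.11 for Ephb1, 0.08 for Ephb6, 0.08 for Ntn1, -0.03 for Plxnb2, 0.07 for Robo3, 0.08 for Sema3a, 0.03 for Sema3d, 0.28 for Sema3e, 0.10 for Sema4f and 0.23 for Sema4g. After quantile normalization, and likewise in the authors' values, Efnb1 and Plxnb2 became -0.07 each. With the mean of all probes, Plxna1 became 0.06, Sema3c -0.36, Sema4d -0.60 and Sema6d -0.01. The cause was not tested. Leaving out each array in turn turned the sign in 41 of the 60 guidance genes, with differences ranging from -0.26 to 0.17 for Efna1, -0.84 to 0.18 for Efna4, -0.48 to 0.13 for Efna5, -0.11 to 0.16 for Efnb1, -0.04 to 0.58 for Efnb2, -1.30 to 4.22 for Efnb3, -2.29 to 0.20 for Epha3, -0.46 to 1.12 for Epha4, -0.33 to 2.24 for Epha6, -1.55 to 0.10 for Epha7 and -0.25 to 0.10 for Ephb1. The range was -2.29 to 0.23 for Ephb2, -0.44 to 0.32 for Ephb3, -0.33 to 0.17 for Ephb4, -1.74 to 0.43 for Ephb6, -1.03 to 0.48 for Ntn1, -0.93 to 0.16 for Ntn3, -0.26 to 0.43 for Ntn4, -0.57 to 0.33 for Plxna1, -0.07 to 0.41 for Plxna2, -0.24 to 0.29 for Plxnb2 and -0.58 to 0.98 for Plxnb3. Differences ran from -1.75 to 0.29 for Plxnc1, -1.04 to 0.46 for Robo1, -0.27 to 0.80 for Robo4, -0.46 to 0.11 for Sema3b, -0.25 to 0.72 for Sema3c, -0.68 to 0.36 for Sema3d, -1.46 to 0.06 for Sema3e, -0.02 to 0.46 for Sema3f, -0.07 to 0.50 for Sema3g, -0.07 to 0.33 for Sema4d and -0.86 to 0.28 for Sema6a. They lay from -0.30 to 0.30 for Sema6c, -0.09 to 0.27 for Sema6d, -1.76 to 0.87 for Slit2, -1.97 to 0.72 for Slit3, -0.29 to 0.03 for Unc50, -0.26 to 0.06 for Unc5a, -1.01 to 0.92 for Unc5b and -1.45 to 0.08 for Unc5c. The sign was kept in the remaining 19, among them Epha1, Plxnb1, Robo3, Sema3a, Sema4c, Sema5a and Sema7a.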
